A study of Homo sapiens with 2 samples.

Results

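Beta-catenin, the TCF/LEF transcription factors and their direct regulators were followed by 10 genes among the 113 pathway genes of a membrane oligonucleotide array for human Wnt signalling. The genes were picked out by symbol and role, namely CTNNB1, the factors TCF7, TCF7L1, TCF7L2 and LEF1, the coactivators BCL9 and PYGO1, and the inhibitors CTNNBIP1, NLK and SOX17. All 10 accessions printed for these spots matched the same symbol in the current RefSeq annotation.

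RNA came from SW480, a human colorectal adenocarcinoma line, in 2 stable forms that were both selected by sorting for green fluorescent protein (GFP) and then grown for weeks. The GFP group carried GFP only, and the hiNOS group carried GFP together with overexpressed hiNOS, an inducible nitric oxide synthase. Each group holds 1 array, so no difference below has a replicate check and no test was possible. The series text mentions further RNA preparations and repeat assays, which were not analysed here. Neither NOS2, which encodes the enzyme, nor markers of colonic epithelium are among the genes on the array, so neither the overexpression nor the cell type was checked here. Each RNA is from a population of sorted cells, in which fewer expressing cells and less RNA per cell cannot be told apart.

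In the canonical Wnt pathway, beta-catenin that escapes degradation enters the nucleus and binds TCF/LEF proteins, which sit on DNA through a high-mobility-group domain and otherwise hold target genes down with corepressors. BCL9 links beta-catenin to Pygopus proteins, which help activate transcription, whereas CTNNBIP1 occupies beta-catenin so that TCF cannot bind it, NLK phosphorylates TCF/LEF proteins and SOX17 antagonises beta-catenin and TCF activity. Colorectal cancers commonly keep this branch active through loss of APC function, and SW480 carries a truncated APC. The comparison of the 2 lines asks how transcripts of the pathway differ when the nitric oxide synthase is overexpressed.

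Each value is the average density of 1 spot on a film image, in scanner units. The authors' software called a spot present or absent against the local background. The GFP array had 53 pathway genes called present and the hiNOS array 51, with 59 present on at least 1 array. The 6 negative-control spots (blanks, plasmid and artificial sequences) ran from 11986 to 12779 units with GFP and from 11408 to 13214 with hiNOS. The dimmest gene called present had 18982 and 18525 units. Densities still hold this background, so a ratio of densities lies nearer to 1 than the ratio of what exceeds the blanks, and both are given where a fold is stated, apart from the authors' own ratios. The mean of the blank spots was 12750 units with GFP and 12336 with hiNOS. Ratios were scaled to the GAPDH and ACTB spots, which averaged 49004 and 48775 units. These reference spots were among the brightest on the film, and 6 of the 7 housekeeping spots were called bleeding on each array.

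Of the 10 genes, 3 were called present on both arrays, 2 with hiNOS only and 5 not at all. Of all 113 pathway genes, 45 were present on both arrays, 6 with hiNOS only, 8 with GFP only and 54 on neither. CTNNBIP1 and CTNNB1 were the pair present on the hiNOS array alone, and both were brighter there. TCF7, TCF7L1 and TCF7L2 were present on both arrays at similar densities, while LEF1, BCL9, PYGO1, NLK and SOX17 were called absent on both. None of the 10 spots was called bleeding, and 0 of them reached 90% of the positive control on both arrays, a level called here near the positive control.

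**Figure D1:**
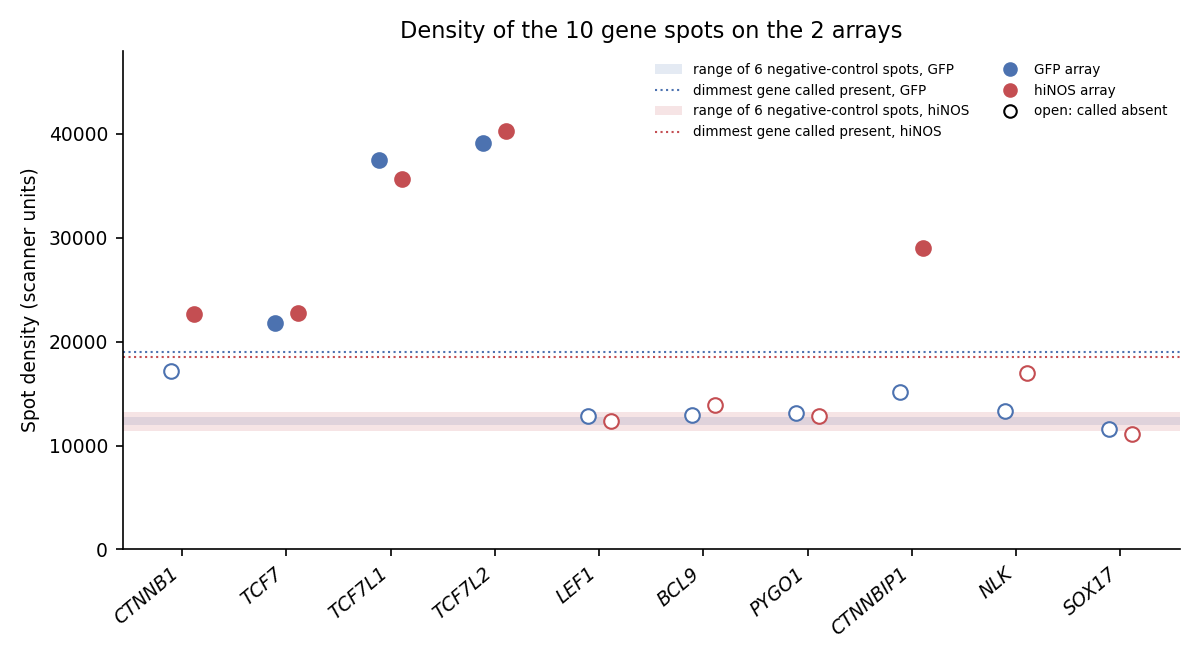
Spot density in scanner units (vertical axis) for the 10 genes (horizontal axis) on the GFP and hiNOS arrays, 1 spot per gene and array, with filled points called present and open points called absent. The shaded bands are the ranges of the 6 negative-control spots and the dotted lines are the dimmest genes called present. CTNNB1 and CTNNBIP1 cross from absent to present, and SOX17 lies below both bands.

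CTNNB1 encodes beta-catenin, which acts both in adherens junctions and as the coactivator that TCF/LEF proteins recruit. Its spot had 17226 units on the GFP array, where it was called absent, and 22673 units on the hiNOS array. The GFP value was below the dimmest present gene of that array but above all 6 negative controls, the brightest of which had 12779 units. The density ratio was 1.32 in favour of hiNOS (log2 0.40). With the dimmest present gene taken as the limit on the GFP array, CTNNB1 was at least 1.20-fold higher on the hiNOS array by density. Once the blank mean was subtracted, it was at least 1.65-fold higher. The measured ratio after subtraction was 2.30, and the authors' deposited table lists CTNNB1 at 2.43. Among the 113 genes, the spot ranked 56 by density with GFP and 41 with hiNOS.

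CTNNBIP1, whose small product covers the TCF-binding surface of beta-catenin, had 15149 units with GFP, called absent, and 29055 with hiNOS, called present. The difference was 13907 units, against 5447 for CTNNB1. Against the same limit, CTNNBIP1 was at least 1.54-fold higher with hiNOS by density. Once the blank mean was subtracted, it was at least 2.67-fold higher. The measured density ratio was 1.93 (log2 0.95). Among the 59 genes present on at least 1 array, CTNNBIP1 had rank 1 by measured ratio on both scales. When genes missing from 1 array were set to their bounds, it had rank 3 by density and rank 1 after blank subtraction. CTNNB1 had rank 6 by measured density ratio and rank 3 after blank subtraction, and at the bounds it had rank 7 and rank 5. The authors' deposited table lists CTNNBIP1 at 7.35, and the measured ratio after blank subtraction was 6.93. That ratio rests on a GFP spot only 2399 units above the blanks and called absent, for which the lower bound is the firmer value. By density the order of these spots differed between the arrays, with CTNNB1 brighter than CTNNBIP1 on the GFP array and CTNNBIP1 brighter on the hiNOS array. Hybridisation differs from probe to probe, so that order is one of spot densities and not of transcript amounts.

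By the 2-fold rule on density over GAPDH and ACTB, 0 of the 5 detected genes were higher and 0 were lower, beside 0% of the 59 pathway genes in each direction. Of the 59, 19 lay near the positive control on both arrays, and 0 of the 5 did. Shares over the 59 are therefore not shares over genes of like density. After blank subtraction 2 of the 5 were 2-fold higher, CTNNB1 and CTNNBIP1, beside 10.2% of the 59 genes, and 0 were 2-fold lower, beside 18.6%. Both passed the presence filter only through the hiNOS array, where they were brighter. The filter thus favoured higher ratios for them, so their counts and their ranks among the 59 cannot be read apart from it. Of the 59 genes, 6 were present with hiNOS only and 8 with GFP only. The other genes present with hiNOS only had log2 ratios from 0.86 to 1.64 after blank subtraction. CTNNB1, at 1.20, lay inside that range, and CTNNBIP1, at 2.79, lay above it. With genes absent on 1 array held at their bounds, CTNNBIP1 was the 1 of 5 that stayed 2-fold higher, beside 5.08% of all genes, and 0 were lower, beside 10.2%. By a 1.5-fold rule on density, CTNNBIP1 was the 1 of 5 that was higher, beside 5.08% of the 59, and 0 were lower, beside 10.2%. Over the 5 genes the median log2 ratio of density was 0.07, against -0.01 over the 59. After blank subtraction these medians were 0.19 and -0.01. The median of the 5 is the value of TCF7 on both scales, so it says little about CTNNB1 and CTNNBIP1.

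**Figure D2:**
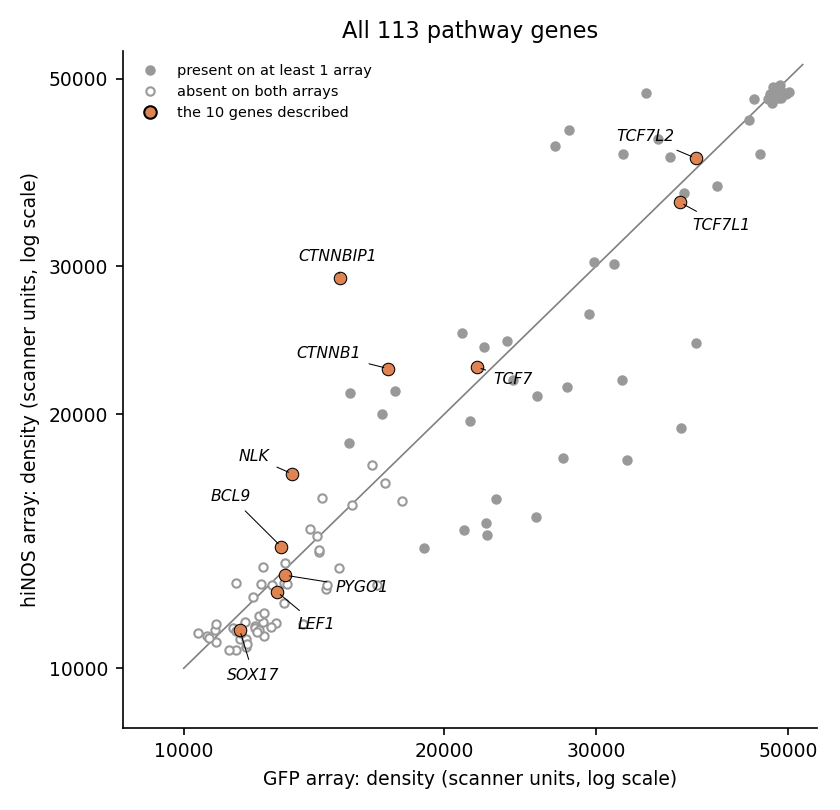
Density of each of the 113 pathway genes on the GFP array (horizontal axis) and the hiNOS array (vertical axis), both in scanner units on log scales, with the line of equal density. Orange points are the 10 genes described, filled grey points are other genes present on at least 1 array and open points are absent on both. CTNNBIP1 and CTNNB1 lie above the line, at measured log2 ratios of 0.95 and 0.40, and the 3 detected TCF genes lie close to it.

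The TCF/LEF factors were compared within each array. TCF7L2, the member best known from the intestinal epithelium and from colorectal cancer, had 39093 units with GFP and 40278 with hiNOS. TCF7L1, known mainly as a repressor in stem cells and embryos, had 37515 and 35687 units. TCF7, first described in T cells and itself a known target of the pathway, had 21845 and 22759. The order of spot densities was therefore TCF7L2, TCF7L1 and TCF7 on both arrays. LEF1, a lymphoid factor that colon cancers can switch on, came last at 12821 and 12322 units and was called absent on both arrays. The GFP value of LEF1 lay 42.8 units above the brightest negative control, and the hiNOS value lay inside the range of the controls.

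TCF7L2 and TCF7L1 were close neighbours in this order. The density of the TCF7L2 spot was 1.04 times that of TCF7L1 with GFP and 1.13 times with hiNOS, or 1.06 and 1.20 times after blank subtraction. Duplicate spots of 1 sequence near the top of the scale differed by 0.01 to 0.02 on the log2 scale within an array, and the 2 blanks by 0.01 with GFP and 0.15 with hiNOS. No sequence of middle density was spotted more than once, so the scatter at the density of the TCF genes is unknown. TCF7L2 and TCF7 stood further apart, at 1.79 times by density with GFP and 1.77 times with hiNOS, or 2.90 and 2.68 times after blank subtraction. These ratios within an array need no reference gene. TCF7L2 over TCF7L1 differed between the arrays by 0.12 on the log2 scale of density, TCF7L2 over TCF7 by -0.02 and TCF7L1 over TCF7 by -0.13 (hiNOS minus GFP). After blank subtraction these differences were 0.17, -0.11 and -0.28.

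Between the arrays, the log2 ratios of density were 0.07 for TCF7, 0.05 for TCF7L2 and -0.07 for TCF7L1. The 6 negative controls had log2 ratios with an SD of 0.08 over spots, and all 3 TCF values were smaller than this in size. Those controls are background spots, so their SD is not the scatter of spots as bright as the TCF genes. After blank subtraction the values were 0.19, 0.08 and -0.09, which correspond to 1.14-fold, 1.06-fold and 1.07-fold. The sign of TCF7L1 turned when arrays were scaled to their median gene (0.03), and that of TCF7L2 turned under quantile normalization (-0.07), so no direction is given for either. For comparison, the SD of the log2 ratio of density was 0.28 over the 45 genes present on both arrays. Over the 26 of them not near the positive control it was 0.37. Without replicates these values do not show that the 3 genes were unaffected.

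Neither coactivator gene was called present, and folds of density are left out for both. BCL9, the adaptor between beta-catenin and Pygopus, had 12964 units with GFP and 13942 with hiNOS. Both values were above the brightest negative control of their array, by 186 and 728 units. The authors' deposited table lists BCL9 at 7.91, a ratio of 1606 units above the blanks with hiNOS to 214 with GFP, after scaling. PYGO1, which reads a histone H3 methyl mark, had 13107 units with GFP, above the controls, and 12893 with hiNOS, inside their range.

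Of the inhibitors, CTNNBIP1 was the only one called present on either array. NLK, the Nemo-like kinase, had 13357 units with GFP and 17005 with hiNOS, and was called absent on both. On the hiNOS array it lay 3791 units above the brightest negative control and 1521 below the dimmest present gene. The authors' deposited table lists NLK at 8.11. Relative to the blank mean, its spot stood 607 units higher on the GFP array and 4669 units higher on the hiNOS array. Of the 54 absent genes, 12 were brighter than every negative control on both arrays, and NLK and BCL9 were among them. SOX17, a transcription factor of endoderm that is often silenced in colon cancer, had 11608 and 11115 units. It lay below all 6 negative controls on both arrays, as did 17 of the 54 absent genes.

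Within the 10 genes, activators and inhibitors could be set side by side only through CTNNB1 and CTNNBIP1, which were both brighter on the hiNOS array. The other inhibitors and both coactivators were called absent on both arrays. The authors' table of genes beyond 2-fold lists 5 of the 10, with CTNNB1, CTNNBIP1, BCL9 and NLK as over-expressed and LEF1 as under-expressed with hiNOS. Of the 113 pathway genes, the same table holds 14.2% on its over-expressed side and 20.4% on its under-expressed side. The LEF1 entry is a ratio of -0.21. It is negative because the hiNOS spot was 14.3 units below the mean of its blanks, while the GFP spot was 71.4 units above theirs. The hiNOS blanks had 11708 and 12964 units, and the LEF1 spot lay between them. A negative ratio gives no fold. Of these 5 entries, BCL9, NLK and LEF1 were called absent on both arrays.

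**Figure D3:**
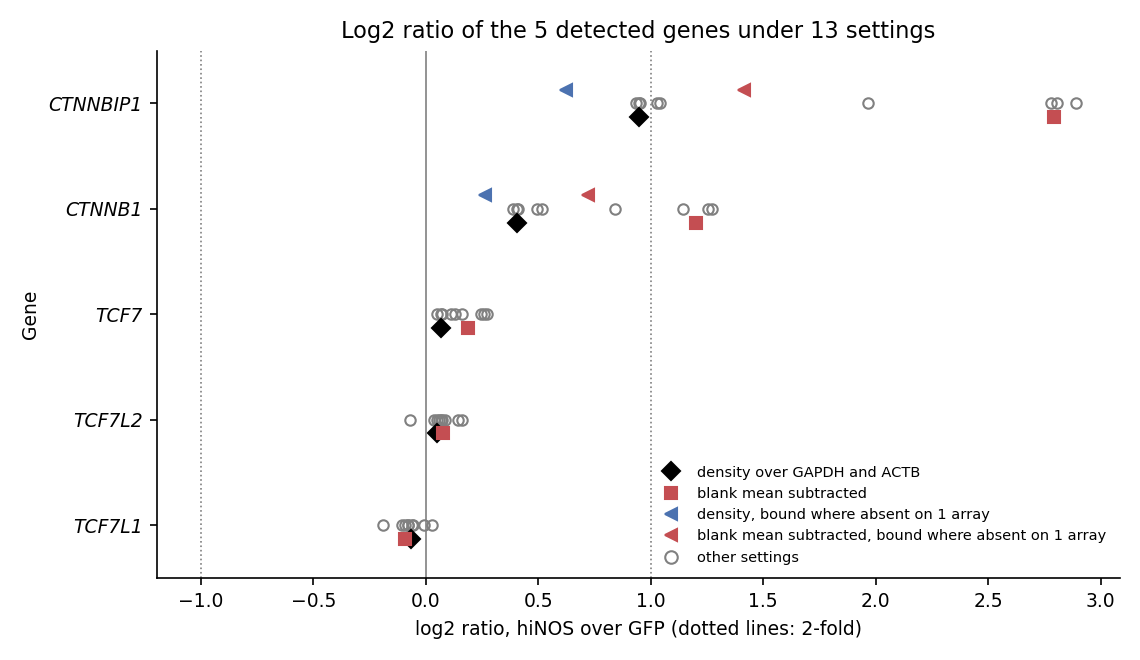
Log2 ratio of hiNOS over GFP (horizontal axis) for the 5 genes present on at least 1 array (vertical axis), under the 13 settings that give each gene a value. Diamonds are density over GAPDH and ACTB, squares are after blank subtraction, triangles are lower bounds for the genes absent on the GFP array, open circles are the other settings, and dotted lines mark 2-fold. CTNNBIP1 runs from 0.62 to 2.89 and CTNNB1 from 0.26 to 1.27, all above 0, while TCF7L1 and TCF7L2 fall on both sides of 0.

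The promoters of the higher pair, CTNNB1 and CTNNBIP1, are shown because TCF/LEF proteins bind DNA directly and can regulate genes of their own pathway. The windows are the 250 bases before the RefSeq start on GRCh38.p14, at chr3:41199255-41199504 on the plus strand for CTNNB1 and at chr1:9910270-9910519 on the minus strand for CTNNBIP1. They were searched on both strands for 4 heptamers of the TCF/LEF type, which are CTTTGAA or CTTTGAT and, with another sixth letter, CTTTGTA or CTTTGTT. Capitals mark a match.
CTNNB1: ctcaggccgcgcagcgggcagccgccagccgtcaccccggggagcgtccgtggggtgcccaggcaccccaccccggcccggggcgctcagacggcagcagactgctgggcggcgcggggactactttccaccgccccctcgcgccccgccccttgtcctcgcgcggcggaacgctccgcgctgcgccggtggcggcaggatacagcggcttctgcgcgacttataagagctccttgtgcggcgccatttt
CTNNBIP1: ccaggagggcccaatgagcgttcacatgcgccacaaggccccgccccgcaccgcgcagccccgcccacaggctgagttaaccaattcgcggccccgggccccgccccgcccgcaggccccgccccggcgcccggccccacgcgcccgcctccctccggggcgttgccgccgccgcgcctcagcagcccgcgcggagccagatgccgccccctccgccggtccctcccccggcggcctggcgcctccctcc

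Neither window holds any of the 4 heptamers. Their GC content was 74.4% for CTNNB1 and 81.2% for CTNNBIP1, against a median of 58.0% over the 35116 windows of the same length. Of all these windows 12.0% hold at least 1 heptamer. Windows were read for 8 of the 10 genes, without the inhibitors NLK and SOX17. They number 12 in all because TCF7, TCF7L2 and PYGO1 have several starts, and 2 of the 12 (16.7%) hold a match. The matches lie before later starts of TCF7 and TCF7L2, and 30 bases around each are shown on the plus strand, at chr5:134123557-134123586 and chr10:113126489-113126518.
TCF7: ggccccactggAACAAAGgaggagagaggc
TCF7L2: aaaatatcaggCTTTGTTcttttgattgaa
The match before TCF7 is CTTTGTT read on the opposite strand. A match describes letters in the window and is not a measured binding site.

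For each of the 5 detected genes, the pathway gene nearest in log2 density over the 2 arrays was found by Euclidean distance, which with only 2 points describes a similar pair of densities. CCND2, a cyclin D gene, was nearest to CTNNB1 at a distance of 0.09, with 17562 units (absent) with GFP and 21317 (present) with hiNOS. CTNNBIP1 had no close neighbour: the nearest was CSNK1A1L, a casein kinase gene, at 0.45, with 15584 and 21231 units. The nearest gene to TCF7 was WNT7B at 0.08, that to TCF7L1 was SFRP5 at 0.04 and that to TCF7L2 was SFRP4 at 0.10.

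Other genes of the pathway were read from 3 lists, beside the same 10.2% of genes 2-fold higher and 18.6% 2-fold lower after blank subtraction. By density 0 genes of any list were 2-fold higher or lower. Of 9 corepressors and other nuclear factors, 4 were present on at least 1 array, FOXN1 among them. After blank subtraction 0 of these were 2-fold higher and 2 were lower, the Groucho-type corepressors TLE1 and TLE4. Both were absent with hiNOS and were at least 1.01-fold and at least 3.21-fold lower, or at least 1.02-fold and at least 1.75-fold by density. Their list had a median log2 ratio of -0.94 measured and 0.00 at the bounds. Of 9 genes for the destruction complex and its ubiquitin ligase, 6 were present, 0 were higher and 2 were lower. These were APC2, a homolog of APC, at 3.62-fold lower (1.95-fold by density), and CSNK1A1, which encodes the priming kinase of beta-catenin, at 2.21-fold lower (1.60-fold by density). The median of the 6 was -0.01. Of 13 genes known as TCF/LEF targets, 8 were present with a median of -0.03, and 4 of the 8 lay near the positive control on both arrays. After blank subtraction 1 of the 8 was 2-fold higher and 1 was 2-fold lower. At the bounds 1 was higher and 0 were lower, beside 5.08% and 10.2% of the 59 genes. NKD1, a Dishevelled-binding antagonist, was 2.07-fold higher (1.56-fold by density). MYC, absent with hiNOS, was at least 1.66-fold lower, or at least 1.24-fold by density. TLE1, TLE4 and MYC passed the presence filter only through the GFP array, where they were brighter, so it favoured lower ratios for them. The other genes present with GFP only had log2 ratios from -2.25 to -1.44 after blank subtraction. Their 2-fold calls therefore cannot be read apart from the filter.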

How the data were processed

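The deposited intensity values are average densities of 128 spots per array, read from film with GEArray Expression Analysis Suite 2.0 per the series text, with no background removed. A further intensity table deposited by the authors was matched, to within 0.005, by density less the blank mean divided by the mean of the spots between the quartiles, so it is linear, not centred and of settled direction. Its column medians were 0.54 (GFP) and 0.50 (hiNOS). The authors' deposited ratios of hiNOS over GFP were treated as a score, since some are negative. Per the file headers, a spot is absent when it is under 1.5 times the mean local background, taken over the lower 75 percentile of non-bleeding spots, and bleeding when its density exceeds the average spot but is within 30% of its own local background.

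Each density was scaled to the average of GAPDH and ACTB on its array, as in the series text, and log2 ratios were taken with Python 3.11.15 (numpy 2.4.6, pandas 2.3.3). For a gene absent on 1 array, the dim side of the bound is the gene's own value or that of the faintest present gene of the same array, whichever is higher. Calls used a 2-fold rule over the 59 genes present on at least 1 array. With 1 array per group no test was run, and the number of arrays limits the precision. The ratio code was tested on simulated arrays, in which the blank means added were also those subtracted. Every simulated signal stood further above the blanks than CTNNBIP1 did on the GFP array, so fainter spots were not covered. Normexp (limma 3.58.1, offset 50) and 16 other settings were tried, of which 3 were chosen after the data were seen. All 10 genes were named by rule. The genes, lists and settings were chosen with earlier results of these data known. Promoter windows come from RefSeq, GRCh38.p14. Cross-hybridisation between related genes was not tested, and probe sequences were not used here.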

Additional observations from a re-analysis of the deposited data

How the results depend on the processing

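The count of members 2-fold higher was 0 by density. It was 2 (CTNNB1 and CTNNBIP1) with the blank mean subtracted, the brighter or the dimmer blank subtracted, or the deposited value table. It was 1 (CTNNBIP1) with normexp, the median pathway gene, quantile normalization, a 1.5-fold rule, and the blank mean subtracted with bounds. Members 2-fold lower numbered 0 under all 17 alternatives. Over the 59 genes, the density ratio gave 0 higher and 0 lower and blank subtraction 6 and 11, normexp 2 and 10, and the deposited values 6 and 10. Background present on both arrays pulls ratios towards 1 by construction. The blank mean subtracted was 12750 units with GFP and 12336 with hiNOS, so subtraction also moves ratios towards hiNOS. TCF7 had a log2 ratio of 0.13 with the brighter blank subtracted and 0.25 with the dimmer. For the scalings the cause was not tested. The median log2 ratio of the 5 detected members was 0.07, and it was 0.19 with the blank mean subtracted, with or without bounds, 0.16 with the median gene, 0.26 with quantile normalization, 0.27 with the deposited values and 0.25 with the dimmer blank. In the 13 settings that give each gene a value, CTNNB1, CTNNBIP1 and TCF7 were above 0 in 13, TCF7L2 in 12 and TCF7L1 in 1. All settings reuse the same 2 spots per gene, so these counts are not repeat measurements. The settings with bounds leave the TCF values unchanged, and a bound cannot change sign. No paired analysis was possible because there is only 1 array in a group, so no replicate could be left out. Signal over background limits LEF1, BCL9, PYGO1, NLK and SOX17 on both arrays.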
